A study of Mus musculus with 16 samples.

Results

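The regions described are the m6A peaks of protein-coding genes whose basic protein-coding transcripts in the GENCODE M39 annotation all consist of 1 exon, with the clustered protocadherins and every other symbol starting with Pcdh left out. Peaks were counted in such a gene where it had the largest exonic overlap on the same strand. Of the 169564 peaks in the 8 lists, 3963 (2.34%) were members, between 421 and 566 per list, in 261 of the 1231 single-exon genes. Multi-exon coding genes, the comparison throughout, held 87.4% of all peaks in 10946 of 18960 genes. In the genes with a peak in a list, 167 to 209 single-exon genes per list, peaks covered 23.0% of the single-exon coding sequence (CDS), against 6.03% of multi-exon CDS within 200 nt of a junction and 27.5% beyond it.

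MeRIP-seq fragments RNA, enriches the fragments that carry N6-methyladenosine (m6A) with an antibody and calls a peak where the immunoprecipitated (IP) reads exceed the input reads. The tissue was the peri-infarct cerebral cortex of adult male C57BL/6J mice 6 to 8 weeks old, with 2 IP libraries in each of 4 groups: Sham, in which no occlusion was made, and 3 MCAO/R groups, in which the middle cerebral artery was occluded with a filament for 2 h and then reperfused for 0 h (MCAO/R-0 h), for 6 h (MCAO/R-6 h) or for 24 h (MCAO/R-24 h). The MCAO/R groups are called by these times in what follows. No group carries a transgene. The labels do not say whether the replicates came from separate animals, so p-values measure the spread between libraries, which may be technical. All libraries draw on the same genes. A p-value for single-exon against multi-exon genes therefore does not measure the spread between genes, and does not extend to other genes of either kind. The tissue holds neurons, glia and infiltrating cells, so a listed peak cannot be traced to a cell type, and fewer cells of a type and less RNA per cell cannot be told apart. Among cortical markers, Neurod2 (projection neurons) and Aqp4 (astrocytes) held a peak in all 8 lists, Gad1 in 6, Mbp in 4 and Slc17a7 in 1, and Snap25 and Gfap held none. Of 8 markers of other organs only Myh6 held a peak, in 1 list. A list says that a peak was called and not how much RNA was present. The lists hold 18775 to 24078 peaks, with no read counts, so the depth is unknown. The paper reports far fewer confident peaks per sample than any list holds. How the lists relate to those peaks is not given in the sources used here, so members may lie outside them.

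m6A is written on nascent RNA by the METTL3 and METTL14 complex, mostly at the central A of a short consensus of 2 purines, A, C and a base other than G (RRACH, of which GGACT is a frequent form). Splicing deposits an exon junction complex just upstream of each junction, and this complex is known to keep the writer away from the surrounding exon sequence, so that m6A in spliced mRNAs gathers in long internal exons and in the last exon, near the stop codon. An mRNA made from 1 exon has no such complex. Genes of this type include many transcription factors, G protein-coupled receptors, histones and immediate early genes, and some are strongly expressed in brain.

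As examples of the consensus in these mRNAs, GGACT sites are printed for some of the 12 genes with the most regions in all 8 lists. These are the genes in which the bases shared by peaks of the 8 lists hold this word, and the others are left out. Only 1 word is printed per gene, although the shared bases held 3 in Ranbp6 (1475 nt), 2 in Jrkl (600 nt) and 2 in Fem1a (250 nt). Each line gives 25 nt of the transcript strand (GRCm39) with GGACT in capitals. The Tspyl5 site lies at chr15:33684355-33684379 on the minus strand in the 3' UTR, the Ranbp6 site at chr19:29787663-29787687 on the minus strand in the CDS and the Fem1a site at chr17:56566247-56566271 on the plus strand in the 3' UTR. The Adra2c site lies at chr5:35438533-35438557 on the plus strand, the Jrkl site at chr9:13244394-13244418 on the minus strand and the Kcnj11 site at chr7:45748324-45748348 on the minus strand, all in the CDS.
Tspyl5: tttagaagtgGGACTcataaatgag
Ranbp6: cagacaatggGGACTatgcatattt
Fem1a: tctgtttgttGGACTtagtaatgac
Adra2c: tcttcaatcaGGACTtcaggcgctc
Jrkl: gcataccaaaGGACTggaaaatgtg
Kcnj11: gctattctgtGGACTactccaaatt
The A of the word lay 59 nt upstream of the stop codon in Adra2c, 185 nt upstream in Kcnj11, 316 nt upstream in Jrkl and 640 nt upstream in Ranbp6, and 388 nt downstream in Fem1a and 2358 nt downstream in Tspyl5. These words mark candidate positions only, since a peak is much wider than a site.

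The first comparison asked how much of the CDS lies under a peak when there is no junction. In the single-exon genes with a peak in a library, 23.0% ± 1.46 (SD, n = 8) of the CDS bases were covered, with a lowest value of 20.5%, a median of 23.1% and a highest value of 24.6%. In multi-exon genes, CDS bases within 200 nt of a junction were covered at 6.03% ± 0.374 (SD, n = 8; 5.32% to 6.42%), and those farther away at 27.5% ± 2.08 (SD, n = 8; 25.0% to 31.1%). The single-exon values of all 8 libraries thus lay above every value near a junction. The ratio of single-exon CDS to CDS near a junction was 3.82 ± 0.231 (SD, n = 8; log2 difference 1.93 ± 0.09), higher in 8 of 8 libraries (p = 0.00781, exact sign-flip permutation over the 8 paired values, two-sided, which cannot give a smaller p). Against CDS beyond 200 nt the ratio was 0.838 ± 0.0442 (SD, n = 8; log2 difference -0.26 ± 0.07, lower in 8 of 8 libraries, p = 0.00781, same exact test).

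**Figure D1:**
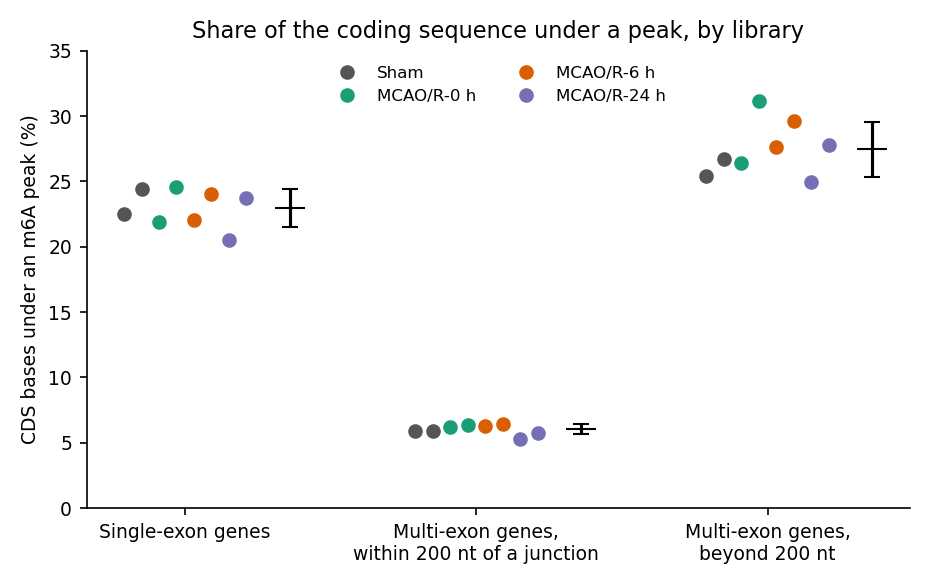
Share of CDS bases under an m6A peak (%, y axis) in genes with a peak in that library, for single-exon genes and for multi-exon CDS within and beyond 200 nt of an exon junction. Points are the 8 libraries in the colour of their group and bars are the mean ± SD (n = 8). The single-exon points (20.5% to 24.6%) all lie above the points near a junction (5.32% to 6.42%) and below those beyond 200 nt (25.0% to 31.1%).

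The size of the difference from junction-distant CDS depended on the genes and bases compared. It was -0.36 on the log2 scale without single-exon genes that overlap another gene and -0.39 over genes with a peak in any of the 8 lists, an alternative added after seeing the data (both p = 0.00781, exact sign-flip test). Among main transcripts of 2000 to 5000 nt it shrank to -0.07 on the log2 scale (p = 0.0938, exact sign-flip test), and with a junction distance of 100 nt to -0.04 (p = 0.156, same exact test). No listed peak spans more than 9996 nt of genome, a limit that only peaks across introns can reach. In the 2075 multi-exon genes with a peak and a main transcript spanning under 10 kb, a comparison added after seeing the data, CDS near a junction was covered at 8.83% ± 0.685 (SD, n = 8) and CDS beyond 200 nt at 23.6% ± 2.58 (SD, n = 8). The single-exon ratio to these was 2.61 ± 0.181 (p = 0.00781, exact sign-flip test) and 0.981 ± 0.0712 (p = 0.391, same exact test). Coverage in multi-exon CDS rose with the distance to the nearest junction, a description drawn after the lists were seen: it was 4.34% ± 0.302 (SD, n = 8) within 50 nt, 11.4% ± 0.776 at 100 to 150 nt, 18.5% ± 1.43 at 150 to 200 nt, 24.5% ± 1.8 at 200 to 300 nt and 29.1% ± 2.2 beyond 1000 nt. The single-exon mean of 23.0% falls between the values at 150 to 200 nt and at 200 to 300 nt.

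The same order of the means was seen at single motif sites. Of the 266 to 322 GGACT words in the CDS of single-exon genes with a peak in a list, 31.1% ± 2.17 (SD, n = 8; 27.1% to 34.5%) lay under a peak. In multi-exon CDS the share was 7.08% ± 0.603 (SD, n = 8) within 200 nt of a junction and 34.4% ± 2.89 (SD, n = 8; 30.8% to 40.0%) beyond it. The single-exon range thus overlapped the range beyond 200 nt, unlike for covered bases. This count of sites was also chosen after the lists were seen and is given without a test.

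Where along the transcript the peaks lay was compared with even placement of their centres over the same transcripts. The single-exon genes with a peak have shorter transcripts (median 2576 nt, CDS 1054.5 nt) than the multi-exon genes (4013 nt and 1578 nt), and several differences below changed when transcript length was restricted. In single-exon genes 50.0% ± 1.67 (SD, n = 8) of the centres lay in the CDS, 43.0% ± 1.73 in the 3' UTR and 6.93% ± 0.676 in the 5' UTR, where even placement would give 41.9%, 47.2% and 11.0%. In multi-exon genes the shares were 60.9% ± 1.5, 34.6% ± 1.44 and 4.56% ± 0.353, against 48.0%, 42.0% and 9.99%.

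Relative to even placement the 5' UTR share was 0.632 ± 0.0525 of the even share in single-exon genes (0.553 to 0.699) and 0.456 ± 0.0335 in multi-exon genes (0.408 to 0.506), so that it was depleted in both but less so in single-exon genes (log2 difference 0.47 ± 0.14, higher in 8 of 8 libraries, adjusted p = 0.0130, exact sign-flip test with Benjamini-Hochberg adjustment over 5 placements). The 3' UTR share was 0.912 ± 0.0348 of the even share against 0.823 ± 0.0334 (log2 difference 0.15 ± 0.07, higher in 8 of 8, adjusted p = 0.0130, same exact test), and the CDS share 1.2 ± 0.0483 against 1.27 ± 0.0294 (log2 difference -0.09 ± 0.05, lower in 7 of 8, adjusted p = 0.0195, same exact test). The last 2 of these differences turned direction among main transcripts of 2000 to 5000 nt, to -0.09 for the 3' UTR (adjusted p = 0.0260, exact sign-flip test) and 0.03 for the CDS (adjusted p = 0.146, same exact test), whereas the 5' UTR difference was 0.62 there (adjusted p = 0.0195, same exact test). The size of the 5' UTR difference varied with the setting, being 0.22 for the better-scoring 50% of the peaks in a list (adjusted p = 0.0234, same exact test) and 0.17 with genes weighted equally (adjusted p = 0.0312, same exact test).

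Both kinds of gene had an excess of peaks around the stop codon. Within 200 nt of its first base lay 24.8% ± 1.04 (SD, n = 8; lowest 23.1%, median 24.7%, highest 26.4%) of the single-exon centres and 20.3% ± 0.441 (SD, n = 8) of the multi-exon centres. Even placement would give 14.3% and 8.66%, so the excess was 1.74 ± 0.0696 against 2.35 ± 0.0599. The excess was smaller in single-exon genes in 8 of 8 libraries (log2 difference -0.44 ± 0.07, adjusted p = 0.0130, same exact test), and it stayed smaller among main transcripts of 2000 to 5000 nt, by -0.23 (adjusted p = 0.0195, same exact test).

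In steps of 100 nt, single-exon centres were most frequent 100 to 200 nt downstream of the stop codon, with 8.23% ± 0.758 (SD, n = 8) of the centres, 2.47 times the even share. Multi-exon centres had their highest share in the first 100 nt downstream, with 5.84% ± 0.191, 2.72 times the even share, where single-exon genes had 1.76 times. In the 100 nt upstream of the stop codon the values were 1.47 times for single-exon and 2.24 times for multi-exon genes.

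**Figure D2:**
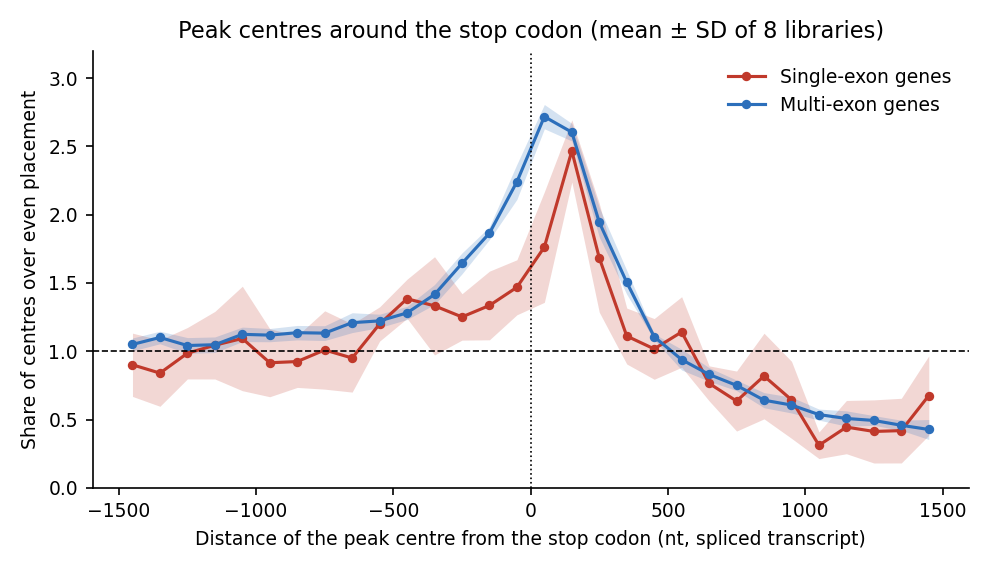
Share of peak centres in steps of 100 nt around the stop codon, divided by the share that even placement along the same transcripts gives (y axis), against the distance from the stop codon on the spliced transcript (x axis, nt). Lines are means and bands the SD of 8 libraries, and the dashed line marks even placement. Single-exon genes peak at 100 to 200 nt downstream (2.47 times), and multi-exon genes in the first 100 nt downstream (2.72 times).

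Within 200 nt of the start codon the centres were depleted in both, to 0.713 ± 0.0779 and 0.791 ± 0.0354 of the even share, and the difference did not pass the test (log2 difference -0.16 ± 0.19, adjusted p = 0.0703, exact sign-flip test). It passed with the higher-scoring 50% of each list (-0.55, adjusted p = 0.00977, same exact test), with a window of 100 nt, with genes weighted equally and with the same number of peaks per list. Along the CDS, scaled from 0 at the start to 1 at the stop codon, the mean position was 0.565 ± 0.0114 against 0.550 ± 0.00406 (SD, n = 8; higher in 7 of 8, p = 0.0156, two-sided exact sign-flip test). This shift was lost with genes weighted equally (p = 0.266, exact sign-flip test) and without genes that overlap another gene (p = 0.188, same exact test). In 10 equal parts of the CDS, coverage of single-exon genes went from 10.3% ± 2.81 (SD, n = 8) in the first to 36.8% ± 3.12 in the last, and that of multi-exon genes from 6.76% ± 0.434 to 18.6% ± 0.953, so single-exon coverage was above multi-exon coverage in the means of all 10 parts.

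Single-exon peaks were longer, with a mean of 200.7 ± 9.46 nt (SD, n = 8; 188.4 to 216.0 nt) against 167.8 ± 6.69 nt of exon in multi-exon genes (longer in 8 of 8, p = 0.00781, two-sided exact sign-flip test). A gene with a peak in a list held 2.62 ± 0.0829 peaks against 2.63 ± 0.0710 (SD, n = 8), and 32.7% ± 2.83 against 40.0% ± 1.5 of the genes held exactly 1. The RRACH consensus, searched on the transcript strand, was in excess in both sets: 16.5 ± 0.196 sites per kb in single-exon peaks, 1.38 ± 0.0215 times the density outside every peak of the same transcripts, and 18.8 ± 0.153 per kb in multi-exon peaks, 1.37 ± 0.0108 times (log2 difference 0.01 ± 0.02, p = 0.133, two-sided exact sign-flip test). The call of this difference changed with the single-exon genes and the motif, and its direction with transcript length. It was 0.06 both where every other transcript of the gene also had 1 exon and without genes that overlap another gene (both p = 0.00781, exact sign-flip test). With GGACT, a word contained in RRACH, it was 0.59 (p = 0.00781, exact sign-flip test), from 1.94 ± 0.133 against 0.804 ± 0.0398 per kb in and outside single-exon peaks and 1.5 ± 0.0307 against 0.937 ± 0.00831 per kb for multi-exon genes. In main transcripts of 2000 to 5000 nt the RRACH difference was -0.03 (p = 0.0156, same exact test). GGACT was present in 28.1% ± 1.53 (SD, n = 8) of the single-exon peaks and in 20.3% ± 0.813 of the multi-exon peaks, which are shorter. Of all 200-nt stretches of the single-exon transcripts 20.1% hold it, and of those outside every peak 14.95%. For multi-exon transcripts these shares were 19.0% and 17.7%. The part of peak length in the difference was not tested.

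Recurrence of the single-exon peaks over the lists varied. The 3963 peaks formed 956 regions, a region being peaks of any list joined by at least 1 shared exonic base. Peaks are joined in a chain, so those of a region in all 8 lists need not all share a base. In the Sowahb region at 176 to 900 nt of the transcript, in all 8 lists, the Sham replicate 1 peak lay at 451 to 525 nt. That of 24 h replicate 2 lay at 201 to 350 nt. Of the 956 regions, 439 (45.9%) were in 1 list and 141 (14.7%) in all 8, against 52.4% and 9.10% of the 45791 multi-exon regions. The regions in all 8 lists lay in 111 genes, 69 of them in the CDS, 68 in the 3' UTR and 4 in the 5' UTR, whereas the regions in 1 list had 252 in the CDS, 124 in the 3' UTR and 60 in the 5' UTR. Of the genes with a peak, 124 (47.5%) had one in every list, against 35.04% of the multi-exon genes with a peak. The difference in recurrence between the 2 sets of genes was not tested, nor was the part of the greater peak length in it.

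**Figure D3:**
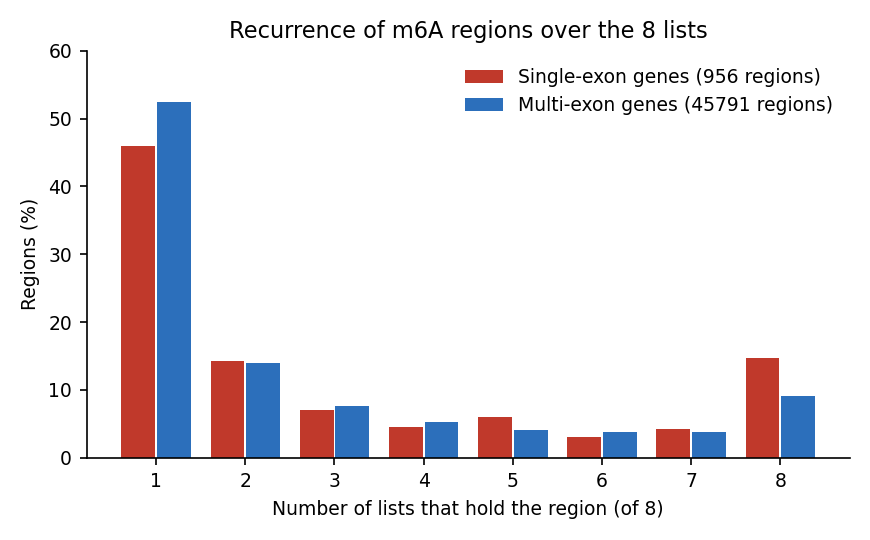
Share of the m6A regions (%, y axis) that are held by 1 to 8 of the lists (x axis), for the 956 regions of single-exon and the 45791 regions of multi-exon genes. The peaks of a region are joined in a chain and need not all share a base. Single-exon regions are less often in 1 list (45.9% against 52.4%) and more often in all 8 (14.7% against 9.10%), a difference that was not tested.

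The 12 genes with the most regions in all 8 lists had 2 or 3 such regions each, some of them joined only in a chain. Ranbp6, a member of the importin family that includes nuclear transport receptors, and Jrkl, a relative of the jerky protein, were covered over most of the CDS. In Ranbp6, a minus-strand gene at chr19:29785800-29790374 with a CDS of 3318 nt, peaks covered 72.8% and 69.8% of the CDS in Sham, 83.4% and 75.1% at 0 h, 76.6% and 77.4% at 6 h and 75.1% and 81.1% at 24 h. In Jrkl, on the minus strand at chr9:13242612-13245834 with a CDS of 1572 nt, the values were 76.3% and 87.3% in Sham, 89.0% and 84.1% at 0 h, 79.3% and 76.1% at 6 h and 85.7% and 79.3% at 24 h. All these values were far above the mean of 23.0% over single-exon genes with a peak. In Ranbp6 both Sham values lay below the 6 others, and in Jrkl they lay within their range, neither of which was tested. The best-ranked Ranbp6 peak scored above 98.1% to 99.96% of the peaks of its list.

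Fjx1, encoding a four-jointed homologue secreted from the Golgi, and Tspyl5, a nucleosome assembly-like protein, also had broad CDS peaks. Fjx1 was covered over 44.3% to 70.6% of its CDS and Tspyl5 over 28.7% to 61.4%, with its best CDS region scoring above 87.1% to 96.6% of the peaks of its list. Sowahb, an ankyrin-repeat protein, had CDS coverage from 14.1% to 48.2%, the lowest and the highest value being those of the 2 Sham libraries. Exoc8, a subunit of the exocyst that tethers secretory vesicles, ranged only from 23.2% to 38.1%.

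Cdk5r1 showed the opposite arrangement. It encodes p35, the neuronal activator of the kinase CDK5, and is a plus-strand gene at chr11:80367849-80372010. Its CDS of 924 nt was free of peaks in 6 of 8 libraries and covered at 5.41% in 0 h replicate 2 and 1.08% in 24 h replicate 1. All 3 of its regions in all 8 lists lay in the 3' UTR, with centres 118, 1880 and 2105 nt past the stop codon, and peaks of the last one scored above 88.8% to 94.2% of their lists.

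Slitrk1, a synaptic adhesion protein, and Adra2c, the alpha-2C adrenergic receptor, each had a region in all 8 lists with its centre in the 5' UTR. The centre is that of the joined region, and 4 regions of all single-exon genes were centred there. The Slitrk1 region at chr14:109150832-109151181 held 150 and 200 nt of peak in Sham, 325 and 175 nt at 0 h, 150 and 225 nt at 6 h and 275 and 100 nt at 24 h, and the centre of its other region in all 8 lists lay 40 nt downstream of the stop codon. The Adra2c region at chr5:35436538-35437512 held 150 and 550 nt in Sham, 325 and 500 nt at 0 h, 50 and 125 nt at 6 h and 700 and 800 nt at 24 h. The values of Adra2c at MCAO/R-6 h were below and those at MCAO/R-24 h above all others, and those of Slitrk1 overlapped between the groups. The Adra2c lengths come from peaks in different places that are joined in a chain. Its 6 h peaks lay at 1551 to 1600 and 1551 to 1675 nt of the transcript, across the end of the 5' UTR at 1567 nt. They share no base with the peak of 0 h replicate 1 at 976 to 1300 nt. Kcnj11, the pore-forming subunit Kir6.2 of the ATP-sensitive potassium channel that opens when cellular ATP falls, had CDS coverage of 59.7% and 23.3% in Sham, 36.2% and 63.9% at 0 h, 29.8% and 40.3% at 6 h and 63.9% and 53.3% at 24 h. Both 6 h values lay below both 24 h values, and the other pairs of groups overlapped. Tril, a co-receptor of Toll-like receptor signalling in glia, had CDS coverage from 17.2% to 43.7%, with 1 region in every list centred in the CDS and 1 centred 228 nt downstream of the stop codon. Fem1a, a substrate receptor of a cullin ubiquitin ligase, had 73 peaks in 16 regions, and its 3' UTR region in all 8 lists scored above 83.8% to 96.0% of the peaks of its list.

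**Figure D4:**
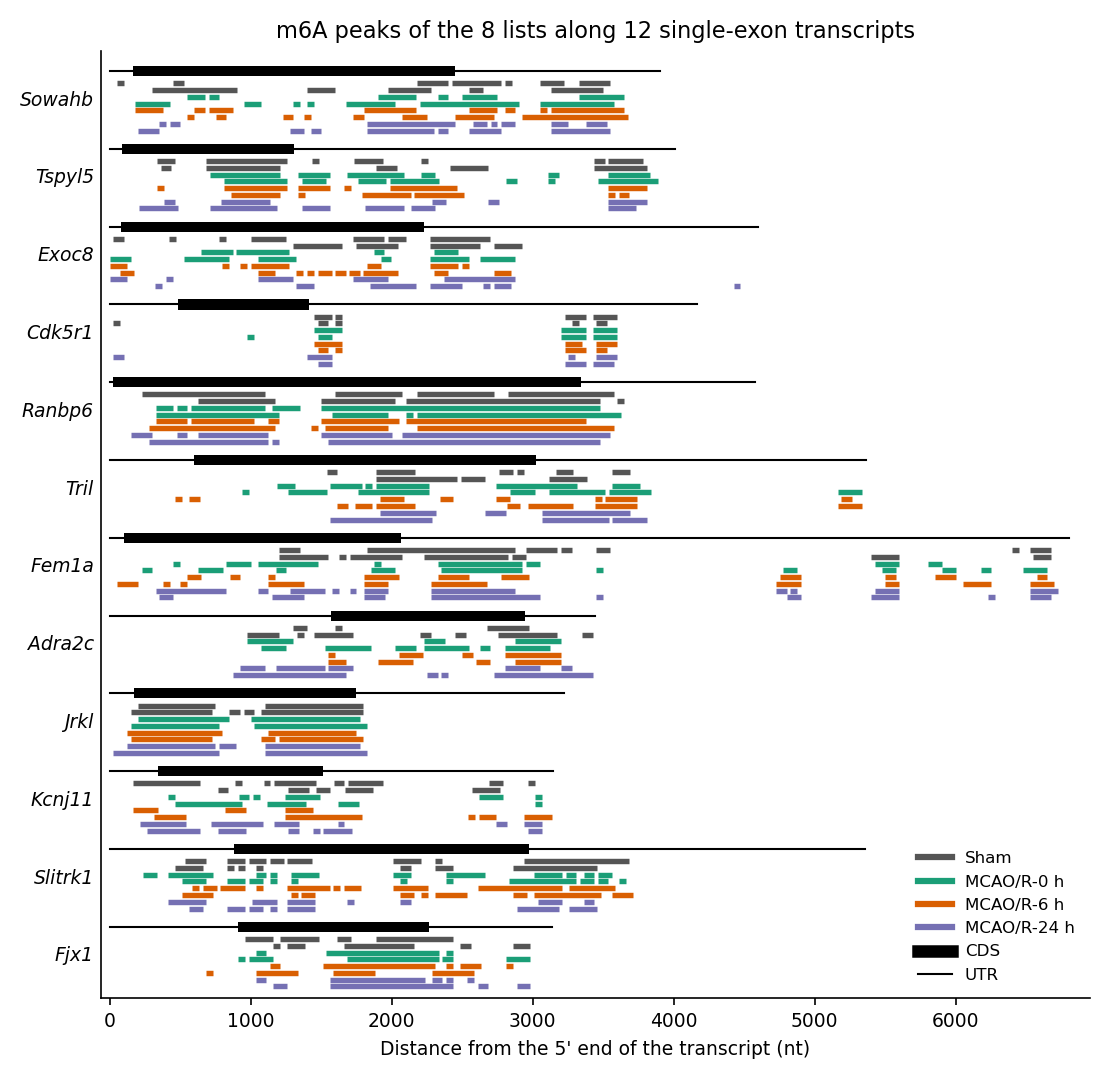
Peaks of the 8 lists along the main transcripts of the 12 single-exon genes with the most regions in all 8 lists (x axis, nt from the 5' end). The black line is the transcript and its thick part the CDS; below it each row is 1 library, from Sham on top to the latest time at the bottom with 2 rows a group. Ranbp6 and Jrkl are covered over most of the CDS, and Cdk5r1 almost only in the 3' UTR.

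By function, the presence of peaks differed widely between groups of single-exon genes, read beside the 21.2% of all 1231 single-exon genes that had a peak and the 10.1% that had one in every list. All 10 single-exon immediate early and inducible factors had a peak, 7 of them in every list. Among them were Ier5l and Ier5, stress-inducible nuclear proteins, and Jun, a subunit of the AP-1 transcription factor. Of the Sox and Pou class 3 factors, which control neural progenitors and neuronal identity, 9 of 11 had a peak and 7 had one in every list. Of the biogenic amine, muscarinic and adenosine receptors 6 of 7 had a peak, in every list for Adra2c, Htr1a (serotonin 1A receptor), Adrb1 (beta-1 adrenergic receptor) and Chrm4 (muscarinic M4 receptor). Of the peptide, lipid and orphan receptors 3 of 4 (Gpr62, Gpr135 and Gpr27) had peaks, all in every list.

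Other groups were listed less regularly. All 5 single-exon Frizzled receptors, which bind Wnt ligands, had a peak, but none in every list: Fzd1 was in 7 lists, Fzd8 in 5 and Fzd2 and Fzd9 in 3. Of the other neural transcription factors 3 of 7 had peaks, Bhlhe22 and Olig1 in all 8 lists and Foxq1 in 1. All 3 voltage-gated potassium channel subunits had peaks, with Kcnf1 in 8, Kcna3 in 7 and Kcna5 in 4 lists, and of the leucine-rich repeat adhesion proteins Slitrk1 had them in 8 and Amigo3 in 1. Of the heat shock proteins 3 of 4 had a peak, Hspa1a in 8, Hspa1b in 7 and Hspb3 in 3 lists. Only 9 of 64 single-exon histone genes had a peak (14.1%), and 2 of them, H1f2 and H1f0, in every list. None of the 250 single-exon chemosensory receptors had one, and without them the share of genes with a peak was 26.6% of 981. No RNA level was analysed here, and the part of expression in these counts was not tested.

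In the 4 named histone genes the peaks lay almost wholly outside the CDS. H1f2, a linker histone at chr13:23922791-23924350 on the plus strand, had 275 and 375 nt under peaks in Sham, 525 and 550 nt at 0 h, 350 and 225 nt at 6 h and 250 and 225 nt at 24 h, and its CDS of 639 nt was covered only in Sham replicate 2, at 0.782%. H1f0, the replacement linker histone of non-dividing cells, had 325 to 500 nt under peaks and at most 5.47% of its CDS. H2bc21 and H2ac25 had no CDS base under a peak in any library. Their annotated 3' UTRs ran from 880 nt (H1f2) to 2192 nt (H2bc21).

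Jun, singled out among the named immediate early genes after its values were seen, had more of its CDS under peaks in Sham than in the other groups. Peaks covered 44.0% and 29.6% of its CDS of 1071 nt in Sham, 28.01% and 0% at 0 h, 0% and 4.67% at 6 h and 0% in both libraries of MCAO/R-24 h. Both Sham values were above all others, by a narrow margin over 0 h replicate 1. The total length under peaks in Jun was 1150 and 1200 nt in Sham and 150 to 625 nt in the 6 other libraries. The region centred 98 nt downstream of its stop codon held 525 nt in both Sham libraries and 125 to 200 nt in the 5 MCAO/R libraries that held it. It was not listed in 6 h replicate 2. Jun overlaps another gene, and 2 libraries against 2 cannot reach a p below 0.333 in an exact permutation test.

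For Sox4, the progenitor factor with the most peaks of its list, CDS coverage was 5.29% and 21.0% in Sham, 14.7% and 34.2% at 0 h, 5.67% and 17.2% at 6 h and 11.0% and 28.3% at 24 h, where replicate 2 was the higher library in every group and the groups overlapped. Pou3f1 was covered at 50.0% to 63.0% in 7 libraries and at 20.4% in 24 h replicate 2.

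Between the groups, the number of single-exon peaks per 1000 peaks of a list was 22.4 and 23.3 in Sham, 23.3 and 23.5 at 0 h, 23.3 and 22.2 at 6 h and 24.6 and 24.4 at 24 h. Both values of MCAO/R-24 h lay above all others, but the difference among the groups did not pass the test after adjustment (means 22.9 ± 0.636, 23.4 ± 0.154, 22.8 ± 0.737 and 24.5 ± 0.160, SD, n = 2; p = 0.0571, adjusted p = 0.171 over 3 measures, exact permutation over the 105 divisions into 4 pairs, one-sided, smallest possible p 0.00952). The CDS share of the centres was 51.3% ± 3.02, 48.4% ± 0.458, 50.7% ± 0.342 and 49.7% ± 0.379 (SD, n = 2; adjusted p = 0.381, same exact test) and the share within 200 nt of the stop codon 25.1% ± 0.607, 25.6% ± 1.19, 25.0% ± 1.00 and 23.6% ± 0.665 (SD, n = 2; adjusted p = 0.381, same exact test).

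Libraries of the same group shared somewhat more regions than libraries of different groups, but not beyond the test. The Jaccard index, regions in both lists over regions in either, was 0.449 in Sham, 0.467 at 0 h, 0.450 at 6 h and 0.465 at 24 h, a mean of 0.458 ± 0.00939 (SD, n = 4 pairs), against 0.447 ± 0.0141 for the 24 pairs across groups. The difference of 0.0112 had p = 0.0571 (one-sided exact permutation over the same divisions). Over multi-exon regions the means were 0.377 and 0.364 (p = 0.0190, same exact test), and whether the 2 sets of genes differ in this was not tested.

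Gained regions, held by both lists of a time and neither Sham list, outnumbered lost ones, held by both Sham lists and neither list of the time. Of the 679 single-exon regions in at least 1 of the 4 lists compared, 31 (4.57%) were gained and 8 (1.18%) lost at 0 h, beside 3.83% and 1.87% over all regions. Of 671 regions at 6 h, 34 (5.07%) were gained and 7 (1.04%) lost, beside 4.94% and 2.02%. Of 655 at 24 h, the gained regions numbered 33 (5.04%) and the lost ones 9 (1.37%), beside 3.79% and 2.75%. The gained shares were thus near the background at 6 h and somewhat above it at 0 and 24 h. The lost shares were below it at all 3 times, but rest on 7 to 9 regions each. Single-exon regions were also more often in all 4 lists compared, at 24.9%, 25.0% and 25.2% beside 17.5%, 17.1% and 16.5% over all regions. The part of this in the lost shares was not tested. The Sham lists are shared by the 3 comparisons, and hold 18775 and 20152 peaks, against 19072 to 24078 in the others. With the 18775 highest-scoring peaks of every list 21, 26 and 28 regions were gained and 8, 8 and 10 lost at 0, 6 and 24 h. The share over all regions was not computed at this setting, so these counts cannot be set against a background. An exact permutation of 2 lists against 2 cannot go below p = 0.333, so no test is given.

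**Figure D5:**
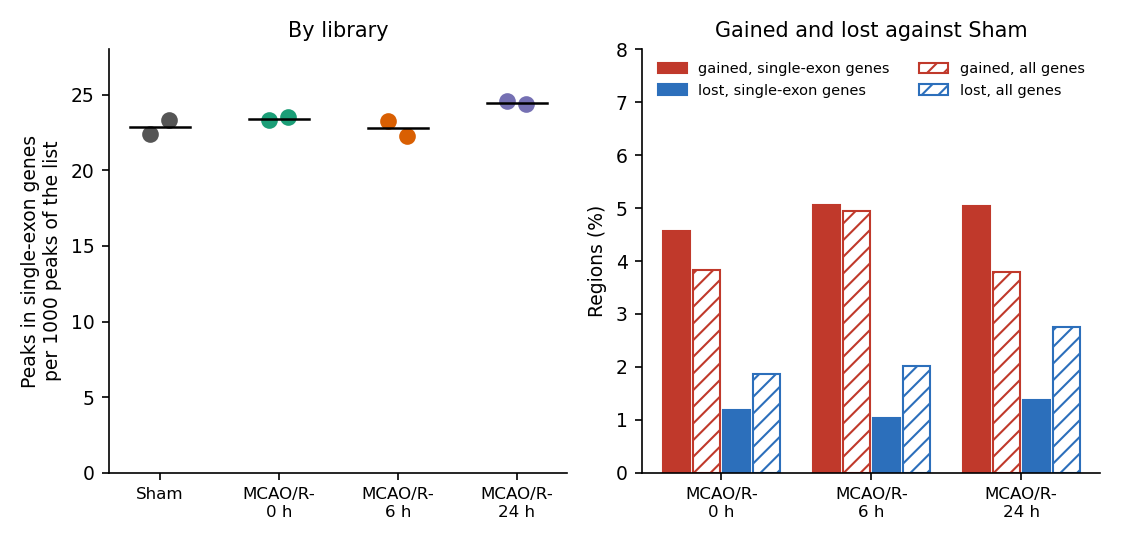
Left, peaks in single-exon genes per 1000 peaks of the list (y axis, from 0) for each of the 8 libraries, with a line at the mean of each group. Right, share of regions (%, y axis) gained (red) and lost (blue) against Sham at each reperfusion time, filled bars for single-exon genes and hatched bars for the regions of all genes. Both MCAO/R-24 h libraries (24.6 and 24.4) are the highest. Lost shares in single-exon genes (1.04% to 1.37%, from 7 to 9 regions each) are below those of all genes (1.87% to 2.75%), which was not tested.

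Across all MCAO/R libraries, 4 single-exon regions were in all 6 MCAO/R lists and neither Sham list, 0.418% of the 956 beside 0.26% of all 52793 regions. Only 1 was in both Sham lists and none of the 6, 0.105% beside 0.371%. The 4 were in Fem1a, Galnt4 (a glycosyltransferase that starts O-linked mucin-type glycans), H2bc21 and mt-Nd4 (a subunit of respiratory complex I encoded by mitochondrial DNA). The Fem1a region at chr17:56564135-56564634 in the CDS held 50 and 175 nt of peak at 0 h, 100 nt in both libraries at 6 h and 500 and 100 nt at 24 h. Its peaks in the 2 libraries at 0 h share no base, nor do those in the 2 libraries at 6 h. They are joined through the peak of 24 h replicate 1, at 326 to 825 nt of the transcript. The Galnt4 region at chr10:98945705-98946079 in the CDS held 75 and 175 nt, 100 and 50 nt, and 50 and 350 nt at the 3 times, and Galnt4 had no peak in Sham. The H2bc21 region at chr3:96130235-96130609 in the 3' UTR, the only region of that gene, held 175 nt in both libraries at 0 h, 75 and 125 nt at 6 h and 200 and 275 nt at 24 h. The score percentiles of the 6 peaks ran from 2.17 to 82.6 in Fem1a, from 3.31 to 36.0 in Galnt4 and from 6.04 to 50.7 in H2bc21.

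The mt-Nd4 region, at chrM:10167-10426, was also the gained region with the highest rank at 0 and 6 h by the rule used for naming, and it scored above 62.5% to 88.7% of the peaks of its 6 lists. A second region of this gene was in Sham replicate 1 and 4 MCAO/R lists. Mitochondrial DNA is transcribed into long precursors that are cut into mRNAs, and mt-Nd4 overlaps its neighbour on the same transcript, so that the gene of these peaks is uncertain. In all, 16 of the 3963 member peaks were mitochondrial, in 3 genes.

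Hspa1a gave the single region lost at all 3 times. Hspa1a and its near-identical neighbour Hspa1b encode the inducible heat shock protein HSP70. The Hspa1a region at chr17:35189116-35189540 in the CDS held 325 and 300 nt of peak in the Sham libraries, scoring above 64.1% and 60.5% of their lists, and was not listed in the other 6. The 3' UTR of the same gene moved the other way: its region at chr17:35188166-35188915, in all 8 lists, held 50 and 75 nt in Sham, 400 and 525 nt at 0 h, 100 and 275 nt at 6 h and 575 and 450 nt at 24 h, with score percentiles of 6.04 and 17.5 in Sham and of 71.0 to 95.6 in the others. All 6 MCAO/R values lay above both Sham values in length and rank. The CDS as a whole was covered at 26.0% and 15.6% in Sham and at 0% to 5.19% in the 6 other libraries. Reads that map to both copies were removed by the authors, so that the CDS peaks of both genes are uncertain. In Hspa1b a 3' UTR region at chr17:35175937-35176011, just downstream of the stop codon, was gained at 24 h with 75 nt in both libraries and was also in 0 h replicate 1.

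The other leading gained regions were those of Nap1l3, a nucleosome assembly protein, and Ier2, an immediate early nuclear protein, at 0 h, of Magel2 and Paqr9, a membrane progestin receptor, at 6 h, and of Eid2, an inhibitor of histone acetyltransferases, at 24 h. Magel2, an imprinted gene of the Prader-Willi region, had peaks in the 2 lists of MCAO/R-6 h and no other. It held 3 peaks over 600 nt in replicate 1 and 7 peaks over 875 nt in replicate 2, covering 12.8% and 19.3% of its CDS of 3855 nt. The leading region at chr7:62030708-62031082, near the stop codon, held 300 and 375 nt and scored above 75.7% and 84.4% of the peaks of those lists.

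Leading lost regions besides Hspa1a were those of Ccdc71l at 0 h, of Ubqln2, a proteasome shuttle factor, at 6 h, of Rprm, a p53-induced cell cycle inhibitor, at 6 and 24 h, and of Pnma8b, of the paraneoplastic antigen family, at 24 h. For Rprm, a minus-strand gene at chr2:53974105-53975564, the total length under peaks was 685 and 475 nt in Sham, 375 nt in both libraries at 0 h, 325 and 275 nt at 6 h and 225 and 175 nt at 24 h, so that the 4 groups did not overlap. Its lost region, in the 5' UTR at chr2:53975205-53975564, was in the Sham and 0 h lists and in none of the later ones. Ubqln2 had 1 region in all, centred 46 nt downstream of the stop codon, with 50 and 125 nt in Sham, 50 and 125 nt at 0 h, none at 6 h, and 50 nt in 24 h replicate 2 only. None of these single-region patterns has a test, and since RNA levels were not analysed here, a change in the peak and a change in the amount of the mRNA cannot be told apart.

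Position near other genes touched many members. Of the 261 genes, 118 overlapped an exon of another gene on either strand, and they held 1848 of the 3963 peaks, and the share of their reads that belongs to the neighbour was not tested. A peak on the opposite strand overlapped 5.73% of the single-exon and 4.33% of the multi-exon peaks. Of the 12 genes listed first, Exoc8, Ranbp6 and Tril overlapped another gene. So did, among others named, Jun, Sox4, Pou3f1, Bhlhe22, Foxq1, Adrb1, Gpr135, Fzd2, Fzd9, Amigo3, H1f0, Galnt4, Hspa1a, Paqr9 and Pnma8b.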

How the data were processed

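Peaks of m6A were taken from 8 IP libraries. Per the labels and the study's methods, the authors trimmed reads with Trim Galore, aligned them to GRCm39 with HISAT2, filtered out reads without a unique alignment (SAMtools) and ran exomePeak2 for the peaks (p-value cutoff 0.05, log2 fold change cutoff 0.5; version and pooling of replicates not given in the sources used here). The deposited lists give each peak as 1 block and a score from exomePeak2 whose scale is undefined, used only to rank peaks within a list (a percentile is the percent of the peaks of the list that score lower). The 8 input libraries were not analysed here.

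All steps used Python 3.11.15, numpy 2.4.6, scipy 1.17.1 and matplotlib 3.10.9. Exonic parts came from basic protein-coding transcripts of GENCODE M39, without readthrough transcripts. A peak with under 50% of its span in the exon of a single-exon gene was not counted there (120 peaks spanning such a gene, a rule added after the lists were seen), and 131 of 169564 peaks had no gene. The main transcript was the one with the longest CDS, and 3933 of the 3963 member centres could be placed on it. Coverage used genes with a peak in the library. The motif comparison needed 200 nt outside peaks. Single-exon and multi-exon values were paired within a library. Scripts were tested on simulated data. Members, gene lists, tests and the rule for named genes were chosen with earlier results of these data known. The rule named the 12 genes with the most regions in all 8 lists, 3 genes each for the best-ranked gained and lost regions at each time (by the lower percentile of the 2 lists), and up to 4 genes per list. Some items that the rule or the marker list names are not reported here. Alternatives were leaving out each library, the higher-scoring 50% or the same number (18775) of peaks per list, stricter single-exon sets, transcripts of 2000 to 5000 nt, equal weight per gene, other windows, distances and motifs, and a replicate block.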

Additional observations from a re-analysis of the deposited data

How the results depend on the processing

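Among main transcripts of 2000 to 5000 nt, the log2 differences between single-exon and multi-exon genes turned direction to 0.033 for the CDS (adjusted p = 0.146, exact sign-flip test, as for all p below), -0.087 for the 3' UTR, 0.017 for the start codon and -0.026 for RRACH, and the position along the CDS (0.0030) and coverage beyond 200 nt of a junction (-0.072) no longer passed. The cause was not tested. The start codon difference passed with the higher-scoring 50% (-0.55), the same number of peaks (-0.22), genes weighted equally (-0.37) and a window of 100 nt (-0.33), and ranged from -0.21 to -0.12 when single libraries were left out, passing without MCAO/R-0 h replicate 2. The RRACH difference passed where every other transcript also had 1 exon (0.057), without overlapping genes (0.062) and with GGACT (0.59), and ranged from 0.0055 to 0.013 with single libraries left out, passing without Sham replicate 1. The position along the CDS no longer passed without overlapping genes (0.012) or with genes weighted equally (0.0061), nor did coverage beyond the junction distance with 100 nt (-0.041) or against multi-exon genes under 10 kb (-0.031). The stop codon, 5' UTR, peak length and near-junction differences kept direction and call under every alternative run for them. The size of the 5' UTR difference moved from 0.17 (genes weighted equally) to 0.62 (2000 to 5000 nt).

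Leaving out 1 library, the largest difference between group means ranged from 1.60 to 2.24 peaks per 1000 (highest without MCAO/R-6 h replicate 1) and from 2.36 to 5.07 percentage points for the CDS share (highest without Sham replicate 1). The Jaccard difference passed with the same number of peaks (0.014, p = 0.0286, exact permutation). Counts of gained and lost regions rest on 2 lists a group. Leaving out 1, gained regions ranged from 51 to 153 at 0 h, 46 to 132 at 6 h and 46 to 144 at 24 h, and lost regions from 15 to 87, 16 to 81 and 23 to 84, since 1 list then decides. With the higher-scoring 50%, 7, 15 and 12 regions were gained, and 4 lost at 0 h. Without overlapping genes 14, 22 and 21 were gained and 3, 4 and 3 lost, from fewer genes. The share over all regions was not computed for these alternatives, so their counts have no background. Replicate numbers are shared across groups by name alone. With the replicate block the differences among groups stayed 1.72 per 1000 (adjusted p = 0.375), 2.93 (adjusted p = 0.458) and 1.98 percentage points (adjusted p = 0.458) by exact permutation, and the Jaccard difference 0.0112 (p = 0.0833, exact permutation), changing no call. The other comparisons are paired within a library.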
